A study of Mus musculus with 49 samples.

Results

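The tripartite motif (TRIM) genes outside the transcriptional intermediary factor 1 (TIF1) branch were followed through p53 activation and Trim24 loss in mouse embryonic stem cells. The members were taken by gene symbol, as every gene named Trim followed by a number except Trim24, Trim28, Trim33 and Trim66. This rule gave 64 of the 20489 genes in the expression tables and used no measured value. The study asked how Trim24, a TIF1 protein that meets p53 on chromatin, shapes the response to p53. All 49 RNA-seq libraries came from the TC-1 line (strain 129S6/SvEvTac) and fell into 16 conditions. p53 was activated with doxorubicin, a DNA-damaging drug, at 1 µM. By their labels both lines other than wild type carried a degron on Trim24, through which dTAG13 at 500 nM removes the protein.

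The time course (degron line, 3 libraries per condition) held uninduced cells at 0 h and cells after 2, 4, 8 and 12 h of doxorubicin, without dTAG13 (Trim24-expressing) or with it (Trim24-degraded). A further pair of conditions in the degron line, with 3 libraries each, was titled untreated and degraded without doxorubicin. The treatment label of the untreated libraries in that pair reads as activated p53, so their state rests on the title. Mdm2, a p53 target, was at a mean of 184 CPM in them, against 181 CPM in uninduced cells at 0 h and 966 CPM after 4 h of doxorubicin. The wild-type line gave 2 uninduced libraries and 2 after 4 h of doxorubicin. A last experiment, with 4 libraries per condition and 4 h of doxorubicin throughout, compared Trim24-expressing, Trim24-degraded and ligase-null cells. The ligase-null line carries a C52/55A double substitution in the RING domain of endogenous Trim24 and received no dTAG13. The edited lines were grown from picked clones, while the wild-type cells were the TC-1 line itself. Whether the replicates of an edited line came from 1 clone is not given. If so, p-values measure only the spread between cultures of that clone.

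TRIM proteins share an amino-terminal block of a RING finger, B-box zinc fingers and a coiled coil, and most are ubiquitin ligases. What follows the coiled coil sorts them into classes, such as the PRY-SPRY domain that recognises proteins, or the NHL repeats that bind RNA. Many members are known from antiviral defence, where interferon raises their transcripts, while others are known from muscle, neurons or the early embryo.

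Levels are given as CPM, the reads of a gene scaled to a common library total, recovered from the deposited log2 values. Log2 fold changes were computed on the deposited scale, which carries a prior count of 8 and so understates the change of low genes. A member was called where its log2 change was 0.75 or more in size and limma's adjusted p lay under 0.01. Libraries held 14422098 to 35185256 reads over genes. The 10 stem cell markers on the list were all above 1 CPM in every condition, and their summed level was 5867 to 5968 CPM at 0 h and 1072 to 1170.0 CPM after 12 h. Summed markers of trophoblast (5 genes) moved from between 3.68 and 4.32 CPM to between 82.4 and 90.2 CPM over the same 12 h, those of fibroblasts (7 genes) from at most 18.6 to at most 56.7 CPM, and those of neurons (5 genes) from at most 194 to at most 75.0 CPM. Because these are bulk libraries, fewer cells of a type and less RNA per cell cannot be told apart. The summed level of 1488 olfactory and vomeronasal receptor genes, which these cells are not known to use, was 103 to 104 CPM at 0 h and 217 to 274 CPM at 12 h. Trim24 RNA stayed in the degraded cells (141 CPM at 4 h against 120.5 CPM in Trim24-expressing cells), so RNA does not check a loss that acts on the protein.

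In uninduced cells 38 members had a mean of at least 1 CPM, 20 of at least 10 CPM and 7 of at least 100 CPM. The highest per kilobase of merged exons was Trim71 with 63.1 CPM per kilobase, an NHL-repeat protein that binds and silences messenger RNAs in the early embryo and stem cells. Trim6, a PRY-SPRY ligase of interferon signalling, followed at 54.6 CPM per kilobase. Trim27, a ligase of the endosome, and Trim25, the ligase that ubiquitinates the RNA sensor RIG-I, came next at 32.9 and 32.4 CPM per kilobase. The 3 libraries of Trim71 and Trim6 did not overlap per kilobase, whereas those of Trim27 and Trim25 did. Trim37, a ligase with a MATH domain, lay at 26.3 CPM per kilobase and overlapped Trim13, a ligase anchored in the endoplasmic reticulum, at 24.7. At the other end, 26 members stayed under 1 CPM, and Trim42 and Trim30c had no read in any of the 3 libraries.

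Under p53 activation with doxorubicin the TRIM transcripts changed in both directions, and more of them at each time up to 8 h. No condition lacked p53, so the part of other effects of the drug was not tested. At 2 h, 4 of 56 tested members were higher and none lower, where 3.07% of all tested genes were higher and 0.677% lower. At 4 h, 13 members were higher and 7 lower of 55, against 12.9% and 5.8% of all genes. At 8 h the counts were 23 and 16 of 61 (all genes 27% and 18.3%), and at 12 h 22 and 16 of 59 (all genes 30.3% and 22.9%). The median member changed by 0.30 on the log2 scale at 12 h and the median gene by 0.04. These activation comparisons share the 0 h libraries, and the time course held no untreated libraries at the later hours. Effects of the drug, of the fresh medium it came in and of time in culture thus cannot be told apart. Without a fold limit and at the looser adjusted p of 0.05, 13 members passed at 2 h, 38 at 4 h and 50 each at 8 and 12 h, where 16.5%, 59.7%, 80.7% and 84% of all genes did. How the calls divide depends on the scaling. With quantile normalization 10 calls were increases and 12 decreases at 4 h. At 8 h that split was 15 to 17, and at 12 h it was 14 to 17. Centring each library on its median made it 18 to 18 at 8 h, and 19 to 17 at 12 h. Relative to the deposited scale, quantile normalization moved the median of all genes by -0.13 at 8 h and -0.16 at 12 h, and median centring by -0.21 and -0.22. No called change of a named member turned direction under any alternative run.

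**Figure D1:**
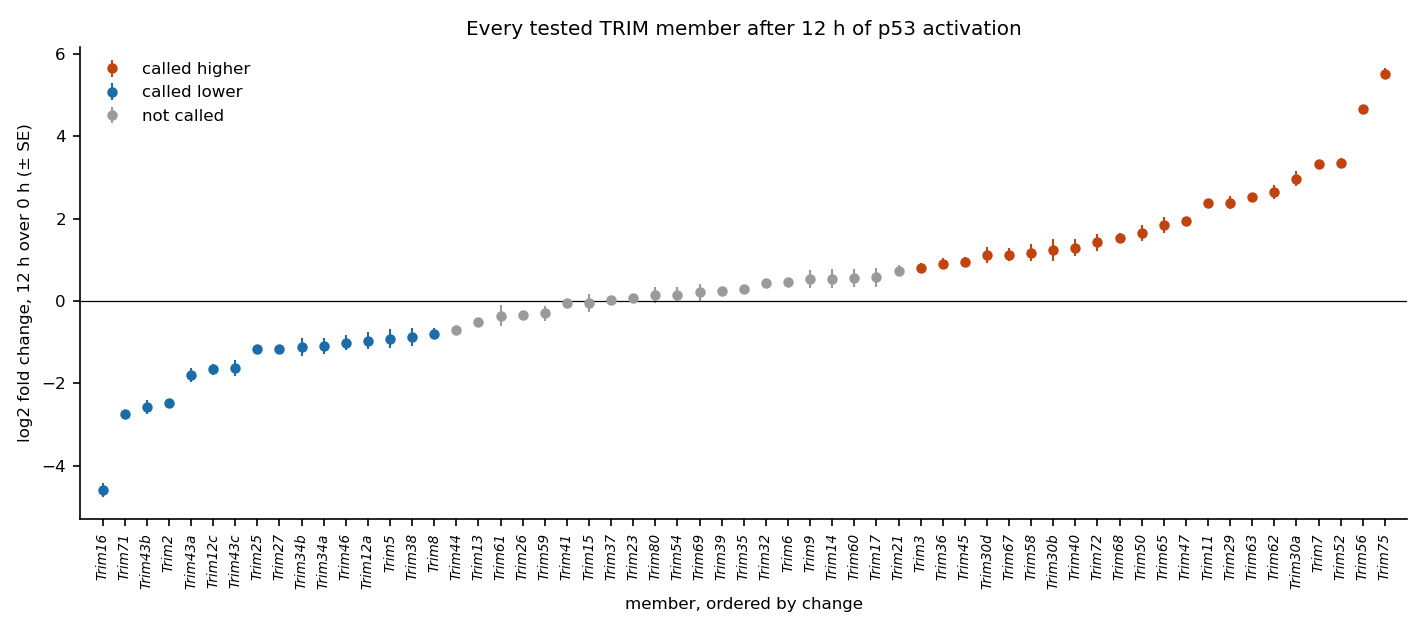
Log2 fold change after 12 h of doxorubicin over 0 h (vertical axis, ± SE, 3 libraries per group) for each of the 59 tested members, ordered along the horizontal axis. 22 members were called higher (orange), from Trim3 to Trim75, and 16 lower (blue), down to Trim16, with the rest in grey.

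The earliest increases were those of Trim7, Trim11, Trim47 and Trim65, all PRY-SPRY members called at 2 h. Trim7, a ligase that also binds glycogenin, read 4.98, 4.66 and 3.85 CPM in the 3 uninduced libraries and 11.7, 11.3 and 10.6 CPM at 2 h. It went on to 26.3, 22.8 and 25.6 CPM at 4 h, and at 12 h it lay at 48.3, 46.6 and 48.8 CPM. No library after doxorubicin overlapped the uninduced ones, and the log2 change was 1.26 ± 0.12 (SE) at 2 h, with an adjusted p of 4.70e-07, and 3.32 ± 0.10 at 12 h. Trim11, known to tag misfolded proteins for removal, read 36.1, 40.6 and 34.6 CPM at 0 h and 78.3, 80.7 and 66.8 CPM at 2 h. It reached 193, 186 and 204 CPM at 8 h and then levelled off, with 191, 201 and 189 CPM at 12 h. Its log2 change was 1.01 at 2 h and 2.38 at 12 h (adjusted p = 1.46e-15).

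Trim47 and Trim65 overlap each other on the same strand of chromosome 11, and reads in the overlap cannot be assigned to one of them with certainty. Trim47 read 6.48, 6.57 and 5.31 CPM at 0 h, 10.02, 11.2 and 10.4 CPM at 2 h and 31.9, 34.5 and 37.8 CPM at 8 h. It was lower again at 12 h, at 24.3, 24.6 and 24.2 CPM, still above each uninduced library. Trim65, a ligase of the RNA sensor MDA5, was a lowly read gene with 0.349, 0.540 and 0.234 CPM at 0 h and 2.12, 3.68 and 3.37 CPM at 4 h. At 2 h the Trim47 change of 0.75 lost its call without Trim24-expressing replicate 2 (0.71) or uninduced replicate 3 (0.66). The Trim65 change of 1.02 at 2 h lost its call when any of 4 libraries was left out, with adjusted p from 0.0198 to 0.0391. In the time course both genes stayed called from 4 h on with every library left out in turn. Single libraries left out at 2 h also added Trim40 (0.89 without Trim24-expressing replicate 3, 0.94 without uninduced replicate 3), Trim56 (0.76 without uninduced replicate 1) and Trim62 (0.86 without uninduced replicate 2). With no filter on low values none of the 2 h calls passed the adjusted p.

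A second set was first called at 4 h and climbed on. Trim56, a ligase that acts in DNA and RNA sensing, read 4.04, 2.99 and 3.91 CPM at 0 h and 14.7, 14.1 and 14.6 CPM at 4 h. It had 43.9, 45.4 and 50.9 CPM at 8 h and 96.5, 101.3 and 100.2 CPM at 12 h, a 27.2-fold rise of the mean with no overlap between any of these times. The log2 change was 4.65 ± 0.10 at 12 h (adjusted p = 5.11e-17). Trim52, a short member that ends after the coiled coil, rose from 1.74, 1.77 and 1.81 CPM to 18.8, 23.8 and 21.4 CPM at 12 h, by 3.34 ± 0.12. Trim63, the muscle atrophy ligase MuRF1, rose from 9.22, 7.85 and 8.12 CPM to 48.4, 43.5 and 47.3 CPM at 8 h and 51.5, 48.5 and 50.6 CPM at 12 h. The 6 genes on the list of skeletal and cardiac muscle markers summed to between 12.9 and 16.9 CPM at 0 h and between 75.9 and 81.4 CPM at 12 h, and their part in the Trim63 value was not tested.

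Lower in level but called from 4 h on were Trim62, Trim29, Trim30a and Trim40. Trim62, linked to epithelial polarity, read 0.598, 0.981 and 0.584 CPM at 0 h and 6.17, 7.10 and 5.62 CPM at 12 h, a log2 change of 2.64 ± 0.18. Trim29, which lacks the RING and is known to hold p53 in the cytoplasm, read 0.748, 0.638 and 0.642 CPM at 0 h and 4.34, 4.995 and 5.88 CPM at 12 h, a change of 2.39 ± 0.17. In both, the 3 libraries at 12 h lay well apart from the uninduced ones. Trim30a, an interferon-induced restrainer of innate signalling, read 0.299, 0.196 and 0.234 CPM at 0 h and 4.53, 3.68 and 4.88 CPM at 12 h, a change of 2.97 ± 0.18. Its call at 4 h (1.00) was lost with quantile normalization (0.64), with no filter on low values, and without limma's trend and robust options. Trim40 read 0.249, 0.196 and 0.409 CPM at 0 h and 1.60, 1.74 and 1.92 CPM at 8 h, and was at 1.45, 1.31 and 0.901 CPM at 12 h, a change of 1.29 ± 0.20. At such levels the rise of the receptor genes given above moves the same way, and its part in the Trim40 value, which was not called with quantile normalization (0.48), was not tested.

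Trim75, a PRY-SPRY gene, had the largest increase of the tested members at 12 h and was not called before 8 h. It read 0.498, 0.834 and 0.759 CPM at 0 h, 0.443, 0.548 and 0.469 CPM at 2 h and 0.435, 0.690 and 0.571 CPM at 4 h, with overlap between 0 h and 4 h. It then had 3.47, 4.05 and 3.58 CPM at 8 h and 46.2, 49.7 and 45.5 CPM at 12 h, so that most of the gain fell between 8 and 12 h. The log2 change over 0 h was -0.19 at 4 h (adjusted p = 0.456), 1.96 ± 0.19 at 8 h and 5.51 ± 0.13 at 12 h (adjusted p = 2.30e-16). Between 8 and 12 h, 4 of the tested members rose and 2 fell, where 4.18% and 2.24% of all genes did. Trim75 rose by 3.55, Trim56 by 1.08, Trim52 by 1.01 and Trim30a by 0.90 in that step. Those that fell were Trim16 (-0.93; -0.72 and no longer called without replicate 2 at 12 h) and Trim38 (-0.85), whose call was lost without any 1 of 4 libraries (adjusted p from 0.0105 to 0.0463). Between 2 and 4 h 10 members rose and 3 fell (all genes 7.69% and 2.11%), and between 4 and 8 h 14 rose and 10 fell (all genes 16.6% and 7.7%). By the looser rule 31, 42 and 20 members passed in the 3 steps in turn, against 42.6%, 68.9% and 41.3% of all genes. The Trim75 gene lies at chr8:64980884-64987831 (mm10, minus strand). The neighbours Trim60 and Trim61, which overlap each other, were not called at 12 h and stayed at means of 0.416 and 0.154 CPM, although Trim60 reached 0.79 and the call without replicate 1 at 12 h.

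**Figure D2:**
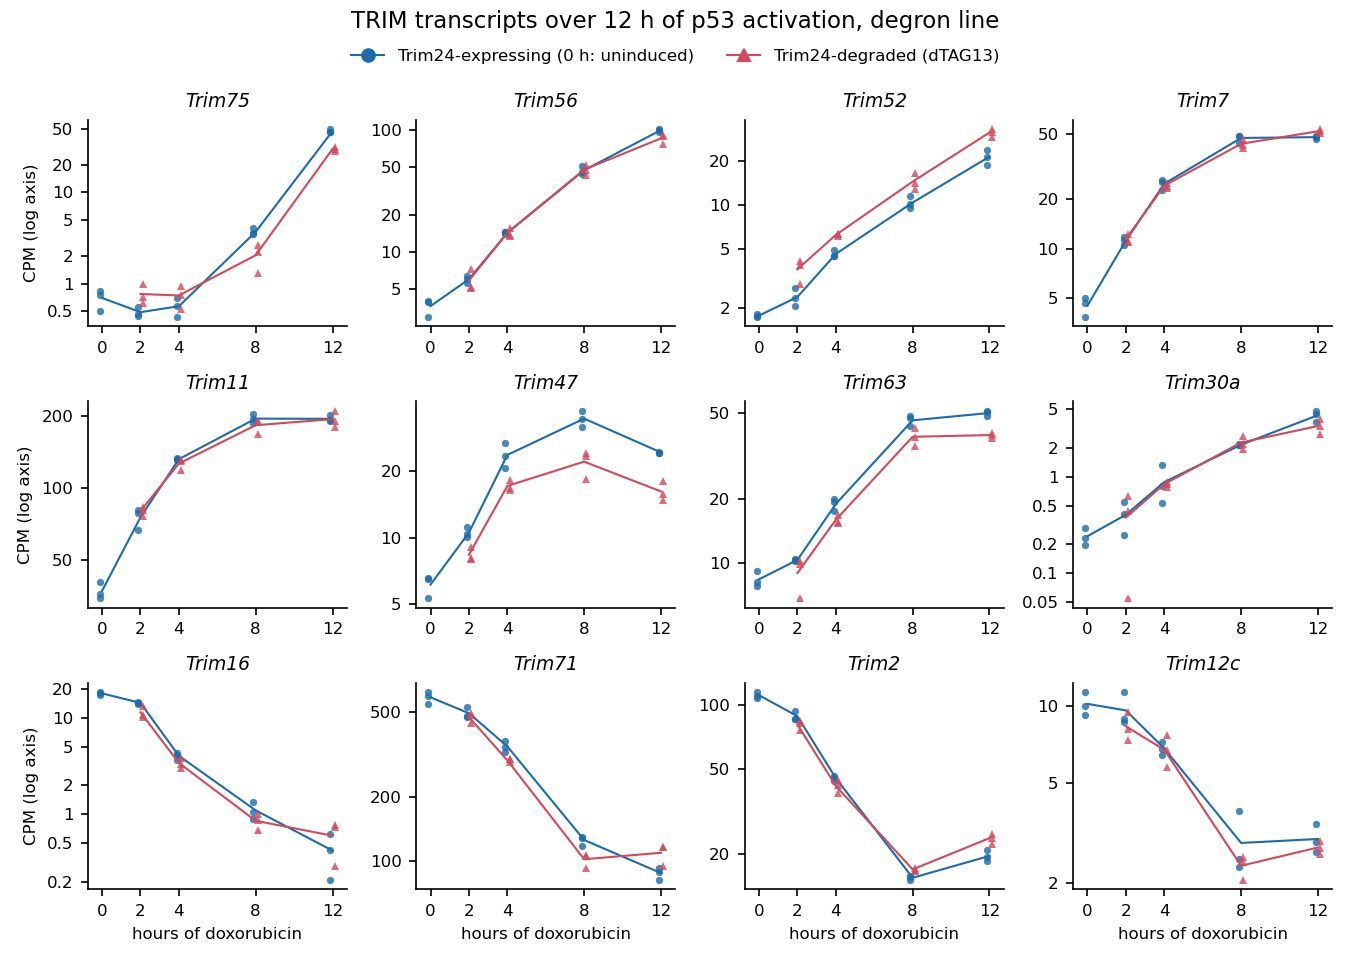
CPM on log axes against hours of doxorubicin for 12 members in the degron line, with each library as a point and lines through the means of 3 libraries (blue circles, Trim24-expressing, starting from uninduced cells at 0 h; red triangles, Trim24-degraded). Trim75 climbs mainly between 8 and 12 h, Trim7 and Trim11 level off after 8 h, and Trim16, Trim71 and Trim2 fall in both arms.

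Further members were called higher only from 8 h. These were 12 members first called at 8 h and 2 at 12 h, and 20 of the 23 called at 8 h were called at 12 h too. Trim21, the cytosolic antibody receptor, read 7.83, 6.23 and 9.52 CPM at 0 h, 17.8, 15.8 and 18.7 CPM at 8 h and 14.7, 12.1 and 12.6 CPM at 12 h. Its change was 1.13 ± 0.11 at 8 h and 0.73 at 12 h, just under the fold limit. The 12 h change lay between 0.76 and 0.87, and was called, without uninduced replicate 3 or replicate 2 or 3 at 12 h. Trim3, an NHL-repeat ligase of neurons, read 12.7, 13.05 and 10.5 CPM at 0 h and 19.6, 22.8 and 21.8 CPM at 12 h, a change of 0.81 that was 0.71 without uninduced replicate 3 and 0.59 with either quantile normalization or median centring, and then not called. Trim9, known from axon branching, read 0.0997, 0.147 and 0.350 CPM at 0 h and 0.481, 0.849 and 0.858 CPM at 8 h, a change of 0.97 that was 0.54 at 12 h and no longer called. With quantile normalization the Trim9 change at 8 h was 0.25 and not called, and the receptor genes named above rose with it. The other late risers outside the naming rule had 12 h means from 0.191 CPM (Trim42) to 16.2 CPM (Trim45).

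Of the members that fell, Trim16 fell the most. Trim16, which lacks a RING but keeps B-boxes and is known from the clearing of damaged lysosomes, read 18.4, 17.9 and 17.2 CPM at 0 h and 14.5, 14.3 and 13.8 CPM at 2 h. It had 4.35, 4.08 and 3.65 CPM at 4 h, 1.34, 0.896 and 1.06 CPM at 8 h and 0.627, 0.210 and 0.424 CPM at 12 h. No library at a later time overlapped one at an earlier time, and the log2 change was -2.05 ± 0.10 at 4 h and -4.58 ± 0.18 at 12 h (adjusted p = 9.67e-14). Trim16 overlaps Fbxw10 on the same strand. Fbxw10 was much lower at 0 h (3.15 CPM) and changed by -0.77 on the log2 scale at 12 h.

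Trim71 and Trim2, both with NHL repeats, also fell. Trim71 read 594, 624 and 549 CPM at 0 h, 368, 327 and 342 CPM at 4 h and 81.5, 88.8 and 92.5 CPM at 12 h. The mean at 12 h was 6.72-fold lower, with no overlap between these times and a log2 change of -2.74 ± 0.06 (adjusted p = 1.59e-16). The change at 4 h (-0.77) lay at the fold limit, and leaving out uninduced replicate 2 or Trim24-expressing replicate 2 left -0.73 in each case, not called. The summed stem cell markers fell over the same hours, and their part in the Trim71 value was not tested. Trim2, a ligase known to act on neurofilaments, read 111, 109 and 115 CPM at 0 h, 45.4, 46.7 and 44.3 CPM at 4 h and 15.8, 15.6 and 15.2 CPM at 8 h. It was slightly higher at 12 h, with 19.4, 20.9 and 18.6 CPM, a change of -2.49 ± 0.07 over 0 h. Among the 4 NHL members, Trim32, a ligase of muscle and neural progenitors, was at 30.01, 33.5 and 33.3 CPM at 0 h and 47.9, 40.3 and 44.2 CPM at 12 h and was not called in any comparison.

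The Trim43 genes, known from the embryo before implantation, were low and fell together. Trim43b read 4.94, 4.02 and 5.31 CPM at 0 h and 0.386, 0.578 and 0.530 CPM at 12 h, a change of -2.58 ± 0.17, and Trim43a changed by -1.79 ± 0.18. Their copies are alike, and an aligner that places a read with several matches at random could divide reads between them, so single values are uncertain. Of the abundant members, Trim25 read 184, 194 and 183 CPM at 0 h and 74.2, 87.8 and 86.6 CPM at 12 h, and Trim27 read 181, 188 and 174 CPM at 0 h and 78.5, 83.6 and 79.97 CPM at 12 h. Neither overlapped its uninduced libraries, and the changes were -1.17 and -1.16 at 12 h. At 4 h they were -0.19 and -0.33, not called. Trim46, which bundles microtubules at the axon start, changed by -1.01 at 12 h, from 3.49, 2.94 and 2.69 to 1.16, 1.68 and 1.17 CPM, and shares bases with Krtcap2 on the opposite strand. Trim8, reported to stabilise p53, read 63.1, 76.3 and 55.4 CPM at 0 h and 32.8, 34.6 and 44.8 CPM at 12 h. Its change of -0.79 lost the call without uninduced replicate 2 (-0.67) or without Trim24-expressing replicate 1 (-0.70) or 2 (-0.74), and with quantile normalization (-0.71) or the replicate block.

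Several abundant members were not called at any time of the course, whereas Trim44 and Trim59 were called at 8 h alone. Trim6 read 272, 259.5 and 270.4 CPM at 0 h and 383, 343 and 388 CPM at 12 h, a change of 0.47. With Trim71 lower, it had the highest CPM of the members at 12 h. Trim37, which modifies histone H2A, was at 190.1, 185 and 194 CPM at 0 h and 204, 185 and 189 CPM at 12 h (0.02). Trim23, which ends in an ARF GTPase domain, and Trim39, a PRY-SPRY ligase of the cell cycle, changed by 0.08 and 0.24. Trim13 changed by -0.52. Trim44, whose zinc finger is of the deubiquitinase type, was lower at 8 h (-0.79; not called without Trim24-expressing replicate 2 at -0.75, nor with quantile normalization at -0.49) and at -0.69 at 12 h was not called. Trim59, a membrane member, was lower at 8 h (-0.82 ± 0.09) and not called at 12 h (-0.29), when its libraries read 31.6, 49.5 and 32.6 CPM. Over all times 16 members were tested and never called, and 3 (Trim55, Trim30c and Trim10) were too low to test in any comparison, with at most 7 reads in a library.

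At 12 h, 30.3% of all tested genes were higher and 22.9% lower, and the counts of classes and lists are to be read against those shares. By structural class, the 36 PRY-SPRY genes gave 13 higher and 11 lower of 34 tested at 12 h, with a median log2 change of 0.38 (10 and 12 with quantile normalization). Of the 6 members that end after the coiled coil, 5 were tested, 3 rose (Trim56, Trim52 and Trim40) and Trim8 fell. Of the 4 NHL genes Trim3 rose and Trim2 and Trim71 fell, with a median of -1.02. Of the 4 members without a RING Trim29 rose and Trim16 fell, with a median of -0.08. On a list of 11 E2 enzymes that hand ubiquitin to TRIM ligases, all tested, 5 were lower at 12 h and none higher, with a median of -0.67. This stood at 4 lower with quantile normalization and 6 lower with median centring. Of 3 tested members known from striated muscle Trim63 and Trim72 rose, Trim72 not with quantile normalization (0.53). Of 5 known from neurons Trim3 and Trim67 rose and Trim2 and Trim46 fell, while quantile normalization left 0 higher and 2 lower. Of 7 tested TRIM genes that carry other names Pml, Mid1 and Mid2 were higher and Triml1 and Triml2 lower.

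The members were unevenly placed, as 14 of the 64 lie on chromosome 7 and 10 of those form a run from Trim6 to Trim30d (chr7:104218793-104507849, mm10). Within that run 9 were tested at 12 h, of which 3 rose and 5 fell (all genes 30.3% and 22.9%). These values were looked at because of the shared position, after they were known, and the pairs of near copies (Trim12a with Trim12c, Trim34a with Trim34b, the Trim30 genes) may divide reads. Trim34a, Trim5, Trim12a, Trim34b and Trim12c, which follow each other along the chromosome, fell, with changes at 12 h of -1.09, -0.91, -0.96, -1.12 and -1.66 (log2). Trim34b was also called at 8 h (-0.75), but not without uninduced replicate 2 (-0.57) or replicate 1 (-0.68) or 2 (-0.67) at 8 h. Of these Trim12c had the most reads, with 9.22, 10.1 and 11.4 CPM at 0 h and 2.65, 3.42 and 2.91 CPM at 12 h. The others were low, with means from 0.786 (Trim12a) to 1.52 CPM (Trim5) at 0 h. At 12 h their means ran from 0.241 (Trim12a) to 0.651 CPM (Trim5). The Trim5 call at 12 h was lost without uninduced replicate 3 (-0.74) or Trim24-expressing replicate 3 (-0.75). Next to them Trim30b, Trim30a and Trim30d rose by 1.24, 2.97 and 1.12, of which Trim30b and Trim30d had 12 h means of 0.678 and 0.492 CPM. With quantile normalization Trim30b (0.59) and Trim30d (0.48) were not called, and without the filter on low values Trim30b, Trim5 and Trim34b were not. The receptor genes rose over the same hours.

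**Figure D3:**
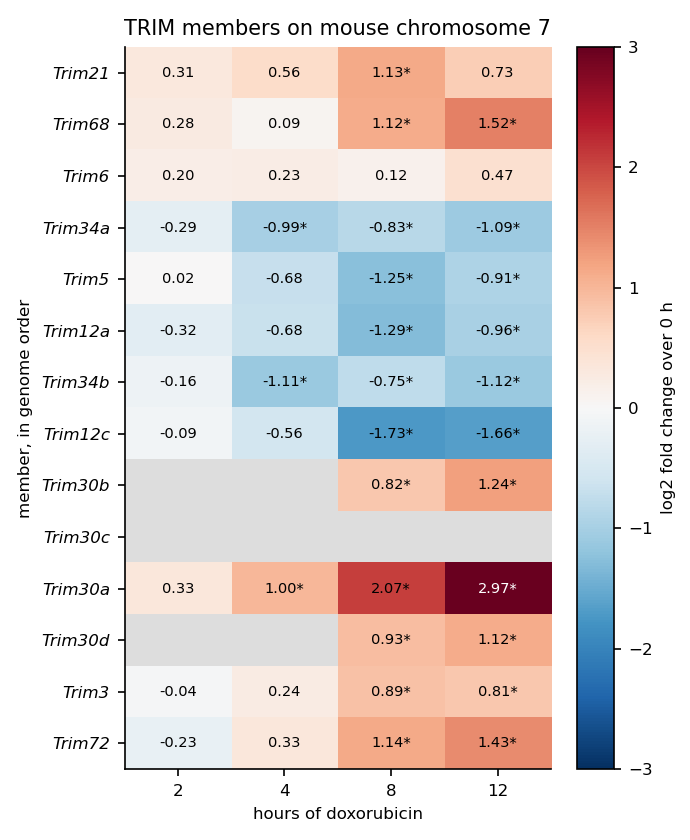
Log2 fold change over 0 h (colour and number) for the 14 members on chromosome 7 in genome order (rows) at 2, 4, 8 and 12 h of doxorubicin (columns) in Trim24-expressing cells. Asterisks mark called changes and grey cells members too low to test; a block of decreases from Trim34a to Trim12c meets a block of increases at Trim30b, Trim30a and Trim30d.

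Promoters of 7 members on chromosome 7 are shown because they hold a core of the interferon-response element near the start, and their members were called in both directions. The core was searched as GAAA, any 2 bases and GAAA on both strands in RefSeq promoter windows (GRCm38.p6) that span 250 bases before to 50 bases after each start. Of the 64 members 50 had a window, and 9 of those 50 held a core, against 3.99% of all 27025 genes with a window. Of the 9, 2 were higher at 12 h, 5 lower and 2 not called, where 30.3% of all genes were higher and 22.9% lower. Each line gives the 60 bases before the start and the first 30 from it, on the strand of the gene, with the core or its reverse complement (TTTC, 2 bases and TTTC) in capitals (in Trim21 a pair of overlapping cores).
Trim21, chr7:102565453-102565542, minus strand: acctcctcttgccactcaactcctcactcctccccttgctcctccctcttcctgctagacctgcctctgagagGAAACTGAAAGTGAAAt
Trim30a, chr7:104465164-104465253, minus strand: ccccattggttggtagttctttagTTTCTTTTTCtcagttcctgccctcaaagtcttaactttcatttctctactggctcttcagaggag
Trim30d, chr7:104507820-104507909, minus strand: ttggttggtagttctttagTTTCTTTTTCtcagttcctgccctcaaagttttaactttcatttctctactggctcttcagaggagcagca
Trim5, chr7:104288077-104288166, minus strand: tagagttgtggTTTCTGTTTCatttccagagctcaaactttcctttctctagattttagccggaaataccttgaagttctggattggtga
Trim12a, chr7:104315466-104315555, minus strand: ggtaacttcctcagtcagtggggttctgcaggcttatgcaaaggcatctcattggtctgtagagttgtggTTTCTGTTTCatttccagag
Trim12c, chr7:104353320-104353409, minus strand: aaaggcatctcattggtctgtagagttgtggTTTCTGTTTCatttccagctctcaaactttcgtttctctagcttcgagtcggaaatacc
Trim34a, chr7:104244397-104244486, plus strand: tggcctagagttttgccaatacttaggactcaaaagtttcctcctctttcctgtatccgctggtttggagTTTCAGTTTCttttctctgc

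The Trim30a and Trim30d windows share an unbroken run of 49 bases. The Trim12a and Trim12c windows likewise share a run of 49 bases, and Trim5 shares 31 bases with Trim12a and 29 with Trim12c. The remaining members with a core were Trim2, lower at 12 h, and Trim26, not called. A paired core of a p53 site was searched as CATG, any 6 bases and CATG, which reads the same on both strands. Sites with other letters or spacing would be missed by this search. A match was found in 3 of the 50 members with a window, against 0.833% of all genes with a window. The 3 were Trim42, Trim60 and Trim61, of which Trim60 and Trim61 share a window. Such matches of letters show no binding, and their absence does not show that a member lacks a p53 site.

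On the list of 15 interferon-linked TRIM genes, 14 were tested at 12 h, of which 4 rose (Trim56, Trim30a, Trim30b and Trim30d) and 7 fell, with a median of -0.62 (all genes 30.3% higher and 22.9% lower). With quantile normalization 2 were higher and 7 lower. The 22 other interferon response genes in the tables gave 5 higher and 7 lower of 19 tested, with a median of -0.54. With median centring that list gave 5 higher and 10 lower, and with quantile normalization 5 and 11.

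The wild-type line gave a second view of activation that shares no library with the time course. After 4 h, 10 of 60 tested members were higher and 2 lower, where 7.99% and 2.27% of all genes were. By the looser rule 28 passed (all genes 36%). All 10 were among the 13 higher at 4 h in the degron line (76.9% of those), and both lower members, Trim16 and Trim34b, were among its 7 lower (28.6%). Over all genes the shared calls were 89.7% of the wild-type increases and 57.9% of those in the degron line, and 83.9% and 34.2% of the decreases. Trim11 read 45.6 and 50.7 CPM uninduced and 106 and 100.7 CPM after 4 h. Trim7 read 6.91 and 7.19 CPM uninduced and 22.4 and 21.4 CPM activated. Both genes thus lay higher in each activated library, with log2 changes of 1.10 and 1.59. Trim56 read 3.69 and 3.51 CPM uninduced and 11.5 and 9.81 CPM activated, a change of 1.48. Trim47 read 2.57 and 3.03 CPM uninduced and 11.3 and 11.3 CPM activated, a change of 1.88.

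Trim16 read 13.3 and 15.4 CPM uninduced and 5.14 and 5.71 CPM after 4 h in the wild-type line, a change of -1.35 ± 0.12. With 2 libraries per group the test borrows spread from other genes, to an extent that differs between genes. Without activated replicate 1 the calls of Trim62, Trim63, Trim29, Trim65, Trim52, Trim40 and Trim34b were lost, which left 5 of 12, although the log2 values ran from -0.67 (Trim34b) to 1.66 (Trim62). Trim29 also lost its call without uninduced replicate 1 (0.87). Trim2 and Trim71, which fell in the degron line at 4 h, changed by -0.44 and -0.56 in the wild-type line and stayed inside the fold limit. Trim30a, called in the degron line, changed by 0.21 ± 0.24 (SE). Whether the lines differ for these genes was not tested.

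**Figure D4:**
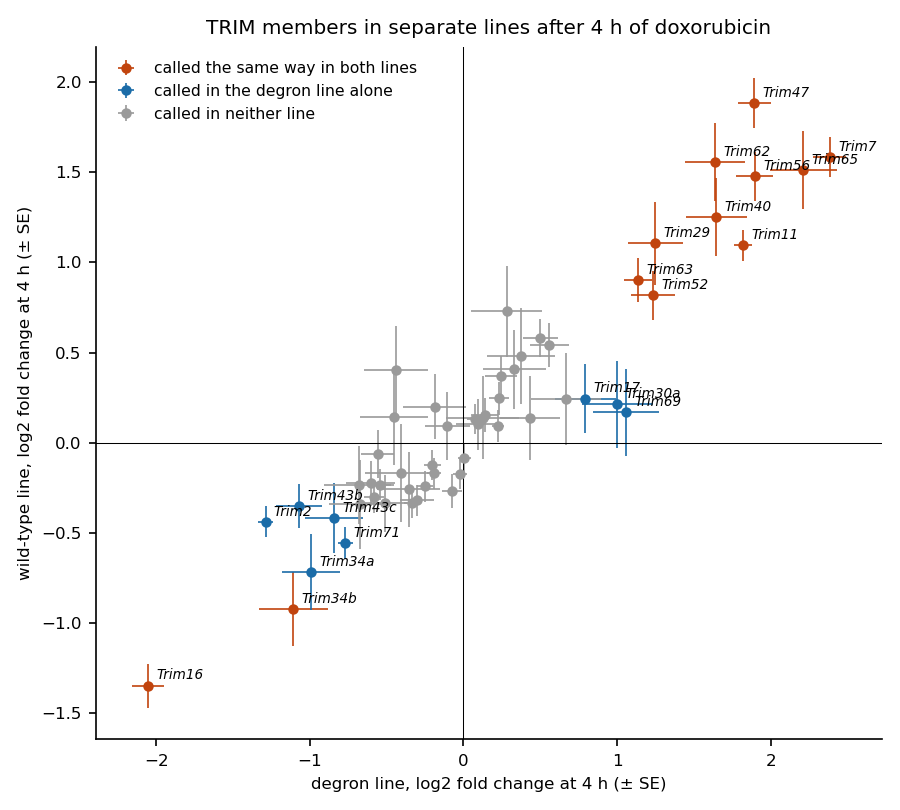
Log2 fold change after 4 h of doxorubicin in the degron line (horizontal axis, 3 against 3 libraries) and in the wild-type line (vertical axis, 2 against 2 libraries), each ± SE, for members tested in both. The 12 members called the same way in both lines (orange) lie in the upper right and lower left, and none was called in opposite directions.

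Loss of Trim24 changed few members. All degraded cells received dTAG13, the cells compared with them did not, and no wild-type library received it. Effects of the compound and of the loss thus cannot be told apart. At 2 h none of 55 tested members was called by limma (all genes 0.338%), and an unadjusted p under 0.05 was reached by 3 that were higher and 4 that were lower. The alternatives run gave 0 as well. At 4, 8 and 12 h a single member each was lower and none higher, where 0.149%, 0.448% and 1.41% of all genes were lower and 1%, 1.14% and 2.7% higher. By the looser rule 10, 9 and 23 members passed, against 11.5%, 10.9% and 31.4% of all genes. Without doxorubicin none of 55 was called (all genes 0.0781%), or by any alternative, and 1 higher and 3 lower members reached an unadjusted p under 0.05. The libraries of that pair carried more primitive endoderm marker RNA (317 to 368 CPM summed over 5 genes) than the uninduced libraries of the time course (27.8 to 29.97 CPM). The member at 4 h was Trim46, with 2.75, 2.82 and 2.80 CPM in Trim24-expressing and 1.36, 1.11 and 1.56 CPM in Trim24-degraded cells. These groups did not overlap, and the change was -0.90 ± 0.17 with an adjusted p of 7.03e-04. At 8 h Trim75 read 3.47, 4.05 and 3.58 CPM with Trim24 and 2.23, 1.30 and 2.63 CPM without it, a change of -0.79 ± 0.17. That call was lost without Trim24-degraded replicate 2 (-0.55) or Trim24-expressing replicate 2 (-0.73). Leaving out either of those libraries brought Trim29 past the limits instead (-0.81 and -0.77). The calls at 4, 8 and 12 h all rested on limma's trend and robust options, without which 0 members were called at each time.

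At 12 h the Trim75 libraries stayed apart, with 46.2, 49.7 and 45.5 CPM in Trim24-expressing and 28.5, 31.7 and 29.7 CPM in Trim24-degraded cells. The log2 change of -0.65 ± 0.08 (adjusted p = 5.86e-07) was under the fold limit. The effect of Trim24 loss on Trim75 differed between 12 and 4 h by -0.89 ± 0.19, 12 h minus 4 h, in a test of the difference (adjusted p = 0.00151). That difference was not called with voom on the recovered reads (-1.03) or without trend and robust. Trim59 was the member called at 12 h, with 31.6, 49.5 and 32.6 CPM in Trim24-expressing and 22.9, 20.6 and 21.4 CPM in Trim24-degraded cells. Its change of -0.77 ± 0.16 was -0.56 without Trim24-expressing replicate 2, the highest of the 6 libraries, and the call was also lost without any 1 of the degraded libraries (adjusted p from 0.0268 to 0.0536). The difference from 4 h was -0.79 ± 0.17 for Trim59 (adjusted p = 0.00298), and -0.59 without that library. It also lost its call without Trim24-expressing replicate 1 at 4 h, degraded replicate 2 at 4 h or degraded replicate 2 at 12 h (adjusted p from 0.012 to 0.0148). These 2 were the members whose effect differed between 12 and 4 h (all genes 3.51%), and 12 passed the looser rule (all genes 23.3%). Between 8 and 4 h no member differed by limma (all genes 0.113%), nor between 2 and 4 h (all genes 0.0485%). At 12 h, single libraries left out added Trim17 (0.82 without Trim24-expressing replicate 2, 0.83 without degraded replicate 3), Trim65 (-0.76 without degraded replicate 1) and Trim67 (-0.76 without degraded replicate 2).

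Below the fold limit, Trim6, Trim47 and Trim52 also differed at some times by the adjusted p. Trim6, the most abundant member by then, read 383, 343 and 388 CPM with Trim24 and 251, 245 and 248 CPM without it at 12 h. The groups did not overlap, and the difference was -0.58 ± 0.06 (adjusted p = 1.88e-07). Trim47 differed without Trim24 by -0.45 ± 0.09 at 4 h, -0.65 ± 0.10 at 8 h and -0.58 ± 0.09 at 12 h, with adjusted p of 0.00111, 2.11e-09 and 3.11e-05. Its libraries at 8 h read 31.9, 34.5 and 37.8 CPM with Trim24 and 18.6, 23.6 and 24.3 CPM without. Trim52 differed the other way, by 0.40 ± 0.12, 0.46 ± 0.11 and 0.54 ± 0.09 at 4, 8 and 12 h, with adjusted p of 0.0273, 0.00111 and 6.96e-05. At 12 h it read 18.8, 23.8 and 21.4 CPM with Trim24 and 28.9, 31.5 and 32.9 CPM without. In both genes the groups at 12 h did not overlap, and neither is counted among the calls, since their changes stayed under the fold limit. Mean Mdm2 was 947 CPM with Trim24 and 736 CPM without it at 8 h, and 1167 and 730 CPM at 12 h. At 4 h it was 966 and 952 CPM. Cdkn1a, a further p53 target, went the other way, with 61.4 and 78.5 CPM at 8 h and 73.2 and 77.5 CPM at 12 h. The part of such shifts in the member values was not tested. For 12 h the paper holds secondary effects to be probable.

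The last experiment tested the RING domain of Trim24 at 4 h of activation. Trim24 degradation lowered 1 of 57 tested members, Trim16, where 0.135% of all genes were lower and 1.01% higher. By the looser rule 14 members passed (all genes 22.4%). Trim16 read 6.36, 5.50, 7.17 and 5.91 CPM in Trim24-expressing and 3.22, 2.94, 3.69 and 4.11 CPM in Trim24-degraded cells, which did not overlap, a change of -0.78 ± 0.12. The call was lost without Trim24-expressing replicate 6 (-0.71) or without degraded replicate 4 (-0.75) or 5 (-0.71). In the time course at 4 h the same loss gave -0.23 ± 0.14 for Trim16, not called. Trim46, called in the time course, changed by -0.71 ± 0.16 here, with 3.31, 2.48, 1.87 and 2.81 CPM against 1.56, 1.51, 1.28 and 1.41 CPM and no overlap, just under the fold limit. Without Trim24-expressing replicate 6 it was -0.84 and called.

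Ligase-null cells differed from Trim24-expressing cells in Trim2, which was higher, and in Trim16 and Trim47, which were lower (all genes 4.67% higher and 2.28% lower), and 16 members passed the looser rule (all genes 38.1%). Trim2 read 26.3, 28.5, 29.4 and 27.5 CPM in Trim24-expressing, 23.5, 22.4, 21.2 and 26.3 CPM in Trim24-degraded and 58.8, 59.7, 61.6 and 59.8 CPM in ligase-null cells. The 4 ligase-null libraries lay above all 8 others. The difference was 1.09 ± 0.06 against Trim24-expressing (adjusted p = 9.03e-16) and 1.35 ± 0.07 against Trim24-degraded cells (adjusted p = 2.85e-17). Trim47 read 29.3, 26.6, 27.9 and 21.8 CPM, 22.8, 23.2, 25.2 and 20.3 CPM and 17.4, 13.1, 15.95 and 11.7 CPM in the same order. Its Trim24-expressing and Trim24-degraded libraries overlapped in this experiment. The ligase-null libraries were below all others, with a difference of -0.85 ± 0.11 against Trim24-expressing cells and, under the fold limit, -0.65 ± 0.10 against Trim24-degraded cells. Trim16 read 2.80, 2.44, 3.95 and 2.59 CPM in ligase-null cells, below every Trim24-expressing library (-1.01 ± 0.14) and overlapping Trim24-degraded cells, from which it differed by -0.23 ± 0.14 (adjusted p = 0.188).

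Primitive endoderm markers summed to 31.6-40.6 CPM in the ligase-null libraries and to 3.33-4.85 CPM in the Trim24-expressing ones, and neuron markers to 78.9 to 96.7 CPM and 154 to 179 CPM. Their part in the Trim2 and Trim47 values was not tested. Against Trim24-degraded cells, 2 members were higher in ligase-null cells and none lower (all genes 4.83% and 1.85%), and 17 passed the looser rule (all genes 48.3%). They were Trim2 and Trim9, the latter with 0.574, 0.358, 0.365 and 0.257 CPM in degraded and 0.606, 1.25, 0.850 and 1.04 CPM in ligase-null cells. The Trim9 change of 0.78 ± 0.20 lost its call without ligase-null replicate 2 (0.67) or 4 (0.74) or degraded replicate 7 (0.70), and Trim67 was added without ligase-null replicate 1 (0.81). The receptor gene sum was 150 to 378 CPM in ligase-null and 108 to 158 CPM in degraded libraries, and its part in the Trim9 value was not tested. Trim24-expressing replicate 7, the highest in that sum of its 4 libraries (272 CPM; the lowest had 135 CPM), also had the most Trim9 reads. Without it 5 members differed between ligase-null and Trim24-expressing cells, Trim9 (0.91) and Trim36 (0.84) being added. Trim36 was also added without ligase-null replicate 2 (0.75) or 3 (0.78), and Trim46 (-0.77) without Trim24-expressing replicate 6. Because the ligase-null cells are a separate line, the RING substitution and line history cannot be told apart here, and the comparisons share libraries.

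**Figure D5:**
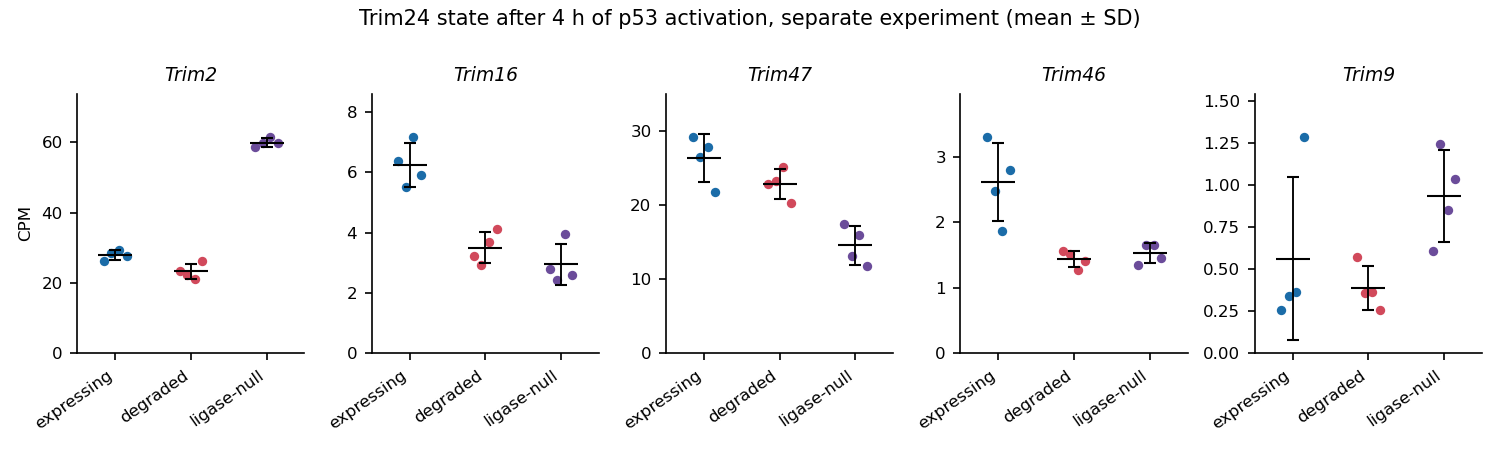
CPM (vertical axes from 0) of 5 members after 4 h of doxorubicin in Trim24-expressing (blue), Trim24-degraded (red) and ligase-null cells (purple), with 4 libraries each as points and bars for the mean ± SD. Trim2 reads 58.8 to 61.6 CPM in the ligase-null libraries and 21.2 to 29.4 CPM in the others, while each Trim16 and Trim46 point of the Trim24-expressing cells lies above all points of the other conditions.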

How the data were processed

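RNA was sequenced after ribosomal depletion (TruSeq stranded total RNA) with 50-base or 100-base paired reads. According to their methods, the authors aligned reads to mm10 with STAR, keeping 1 of several equal matches at random, counted them with featureCounts over GENCODE protein-coding genes without Gm models, and deposited log2 CPM (TMM scaling in edgeR, prior count of 8) in 4 tables. Use of strand in counting is not given in the sources used here. The deposited log2 values gave back whole reads in 100% of cases (tolerance 0.01), and CPM without the prior count was computed from those reads.

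Differences were tested on the deposited log2 values with limma 3.58.1 (R 4.3.3; trend and robust) within a table, over the groups compared, with Benjamini-Hochberg adjustment over all genes whose log2 level passed the floor of the table plus 0.5 in enough libraries. Calls needed a log2 change of 0.75 or more in size beside an adjusted p below 0.01. Fits were tested on simulated data whose changed genes lay above a minimum level, so changes of the lowest members were not covered. Tables were made with Python 3.11.15 and pandas 2.3.3. Lengths came from merged GENCODE exons (mm10), promoters from RefSeq (GRCm38.p6). Members, gene lists and comparisons were chosen with earlier results of these data known. Named were, in each comparison, the 8 largest increases and 5 largest decreases among the calls, and a roster of 16 members given whatever they did. Members named as part of a whole group (chromosome 7, promoters, short lists, calls gained without a library) were chosen after their values were seen. Alternatives were voom on recovered reads, a prior count of 2, quantile normalization, median centring, other filters, limma without trend and robust, other thresholds, all groups in 1 fit, a replicate block, and leaving out each library. Depth, 14422098 to 35185256 reads per library, limits the low members.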

Additional observations from a re-analysis of the deposited data

Results flagged for a closer look

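In the ligase-null experiment, 3 of 105 values examined had a single library far from the other 3 of its group, and chance flags about 1 in 20 groups. All 3 were in Trim24-expressing replicate 7. Trim6 read 283.887 CPM there and 305.957 to 308.559 CPM in the others. Trim7 read 19.885 CPM against 21.6651 to 22.0312 CPM. Trim9 read 1.28668 CPM against 0.258395 to 0.363683 CPM. The effect of Trim24 loss differed between 12 and 4 h of doxorubicin for Trim59 (difference of -0.791363 on the log2 scale) and Trim75 (-0.893369), each by limma's test of the difference.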

How the results depend on the processing

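Replicate numbers did not mark pairs: deviations of same-numbered libraries correlated between -0.2075 and 0.1975, and 0 of 11 pairs of groups had all correlations over 0.1. With the replicate block, 5 members were called at 2 h of activation, 20 at 4 h, 39 at 8 h, 37 at 12 h and 12 in wild type, and 1 on Trim24 loss at 4, 8 and 12 h each and in the ligase-null experiment. No paired analysis was possible for ligase-null cells because they share fewer than 2 numbers with the other groups.

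Of 1312 alternative values for 132 calls of named members, 1258 kept the call, 54 lost it and 0 reversed. With a library left out, 46 of 792 lost it. With the adjusted p limit at 0.05 and no fold limit, counts were 13 at 2 h and 38 at 4 h of activation, 28 in wild type, 10, 9 and 23 on Trim24 loss at 4, 8 and 12 h, 14 on loss in the ligase-null experiment, 16 and 17 for ligase-null against Trim24-expressing and Trim24-degraded cells, 31, 42 and 20 for the steps from 2 to 4, 4 to 8 and 8 to 12 h, and 12 for the difference between 12 and 4 h. This rule admits smaller changes. Quantile normalization gave 2 at 2 h, 0 on loss at 12 h and 1 for ligase-null against degraded cells. No filter gave 0 at 2 h. Without trend and robust, loss at 4, 8 and 12 h and the difference between 12 and 4 h gave 0 each. Voom gave 2 on loss in the ligase-null experiment and 1 for the difference, a prior count of 2 gave 3 on that loss, and a stricter filter 1 for ligase-null against degraded cells. The cause was not tested.

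Leaving out 1 library at a time gave 2 to 5 calls at 2 h, 18 to 22 at 4 h, 38 to 40 at 8 h, 37 to 38 at 12 h, 5 to 12 in wild type, 0 to 1 on loss in the ligase-null experiment, 3 to 5 and 1 to 3 for ligase-null against Trim24-expressing and degraded cells, and 1 to 3 for the difference between 12 and 4 h.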
